A study of Mus musculus with 80 samples.

Results

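The NRF2 antioxidant core genes are 10 genes chosen by symbol: Nqo1, Gclc, Gclm, Txnrd1, Srxn1, Hmox1, Gsr, Osgin1, Nfe2l2 and Keap1. All 10 were among the 22103 gene rows of the deposited table, and all 10 were among the 15197 rows with enough counts to be tested. The list holds no glutathione transferase and no P450 gene. Liver RNA came from 20 female Balb-C mice, aged 10-12 weeks, gavaged once a day on 7 days with PFESA-BP2, a polyfluoroalkyl ether sulfonic acid known as a byproduct of fluoropolymer manufacture. The 5 groups of 4 mice received 0 (control), 0.03, 0.3, 3.0 or 6.0 mg/kg-day, and each mouse gave 1 library, so a replicate is 1 animal. For the controls the titles name DMSO and the design text names deionized water, so the vehicle was taken as unsettled. No group carried a transgene or a second agent.

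NRF2, encoded by Nfe2l2, is a transcription factor of the cap'n'collar family. In unstressed cells KEAP1 binds it and hands it to a ubiquitin ligase, so that it is degraded. When electrophiles or oxidants modify cysteines of KEAP1, NRF2 escapes, enters the nucleus, pairs with small MAF proteins and binds antioxidant response elements near its target genes. Because NRF2 is controlled largely at the protein level, the RNA of its targets is commonly read as a gauge of its activity. In liver these targets make and recycle glutathione, reduce thioredoxin and peroxiredoxins, and detoxify quinones and heme.

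The core of the antioxidant response element, TGACNNNGC, was searched on both strands in RefSeq promoter windows of GRCm38.p6, which run from 250 bases before to 50 bases after a gene's start. Its reverse complement is GCNNNGTCA. Of the 10 genes, 7 had such windows (9 in all), and 4 windows, in 4 genes, held a match, against 12.4% of all 32851 windows. The windows of Nqo1, Osgin1 and Keap1 held no match, which says only that these letters are not in those windows. The 4 stretches with a match are shown so that the matched letters can be seen in their context, each read 5′ to 3′ in the direction of its gene with the match in capitals.
Nfe2l2: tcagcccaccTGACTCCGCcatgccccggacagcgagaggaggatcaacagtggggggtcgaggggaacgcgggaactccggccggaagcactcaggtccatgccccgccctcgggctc
Srxn1: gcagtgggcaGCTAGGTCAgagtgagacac
Gclm: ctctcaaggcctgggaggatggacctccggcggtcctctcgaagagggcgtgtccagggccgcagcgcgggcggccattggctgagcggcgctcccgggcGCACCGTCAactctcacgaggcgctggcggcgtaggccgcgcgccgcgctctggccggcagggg
Txnrd1: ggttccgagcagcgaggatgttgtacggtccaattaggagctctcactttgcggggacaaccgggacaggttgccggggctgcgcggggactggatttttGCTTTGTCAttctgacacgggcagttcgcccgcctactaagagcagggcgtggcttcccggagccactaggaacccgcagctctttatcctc
Positions of all 4 matches count from the start on which that window was built, which need not be the gene's outermost start. The Nfe2l2 stretch is chr2:75704795-75704913 on the minus strand, with the match at -240 to -232 in the forward sense. The Srxn1 stretch is chr2:152105542-152105571 on the plus strand, with the match in the reverse sense at 29 to 37 after the start, inside annotated exon sequence. The Gclm stretch is chr3:122245323-122245486 on the plus strand, with a reverse match at -134 to -126. The Txnrd1 stretch is chr10:82859014-82859205 on the plus strand, with a reverse match at -92 to -84 from the start of the second window of that gene. As the values below show, RNA of Srxn1, Nfe2l2 and Txnrd1 rose with the highest dose and that of Gclm did not pass the test. Of the genes without a match, Nqo1 rose, and Osgin1 and Keap1 did not pass. Of those without a window, Gclc and Gsr rose, and Hmox1 did not pass. A link between the match and the rise was not tested.

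Total counts per library ranged from 13086779 to 21467012, and a member had between 59 and 17064 counts in a library. In each group 1 library stood apart from the other 3 on the first principal component of the within-group residuals, which held 42.7% of their variation. These were libraries 3, 11, 15, 19 and 23. Their scores were 0.268 or more, while those of the other 15 were -0.0202 or less. No label names what sets them apart. These libraries were picked from the same values that are compared below, with the 10 genes among them. Differences between them and the other 15 are therefore descriptions, and their standard errors do not account for that choice. Hepatocyte markers were abundant in all 20 libraries, with a summed level of 138640 to 184330 CPM, the counts scaled to each library's TMM-adjusted total, in the controls and 88693 to 120394 CPM at 6.0 mg/kg-day. Of 10 hepatocyte markers, 5 fell at that dose and 0 rose, where 11.2% of all genes fell and 11.2% rose. In bulk liver RNA, fewer cells of a type and less RNA per cell cannot be told apart.

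At 6.0 mg/kg-day 6 of the 10 genes rose and 0 fell. In order of size these were Srxn1, Nqo1, Gsr, Gclc, Nfe2l2 and Txnrd1, with log2 fold changes from 2.09 to 0.38. Hmox1, Keap1, Gclm and Osgin1 did not pass. Of all genes tested at this dose, 22.4% passed, of which 11.2% of all genes rose and 11.2% fell. Of the 10, 4 (Nqo1, Gclc, Srxn1 and Gsr) had every treated mouse above every control, a separation in either direction that 18.5% of all genes showed. The median change over the 10 genes was 0.56, beside -0.02 over all genes tested. Passing means an adjusted p under 0.05 in edgeR's quasi-likelihood test with Benjamini-Hochberg adjustment over all genes tested, and every adjusted p below comes from that test unless another is named.

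**Figure D1:**
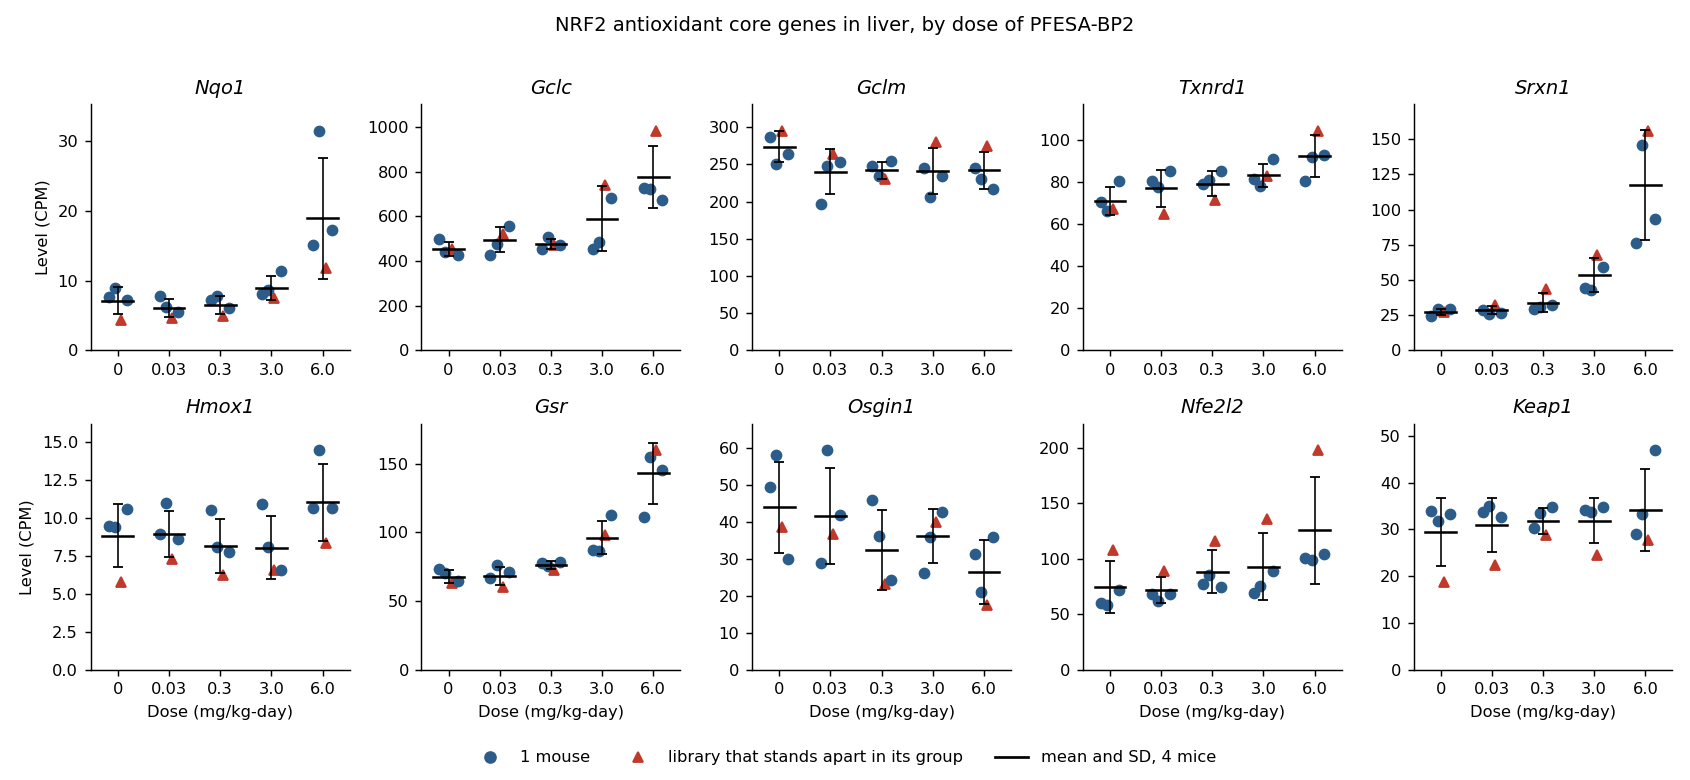
Level of each of the 10 genes in CPM (vertical axes from 0) against the dose of PFESA-BP2 in mg/kg-day. Each point is 1 mouse, red triangles are the 5 libraries that stand apart (1 per group), and bars are the mean and SD of 4 mice; Srxn1 goes from 27.6 CPM in controls to 118 CPM at 6.0 mg/kg-day, while Gclm stays between 197 and 295 CPM in all 20 mice.

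The regulators come first. Nfe2l2 (chr2:75675513-75704641, minus strand, GENCODE M21 on GRCm38) encodes NRF2 itself. Its level in control libraries 1 to 4 was 60.2, 58.4, 108 and 72.1 CPM. In libraries 21 to 24, at 6.0 mg/kg-day, it was 101, 98.7, 198 and 105 CPM. In both groups the third value belongs to the library that stands apart and is the highest, and the groups overlap only through control library 3. The means were 74.8 ± 23.3 and 126 ± 48.3 CPM (SD, n = 4 each), and Nfe2l2 rose by a log2 fold change of 0.75 (standard error, SE, 0.254; adjusted p = 0.0392).

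The Nfe2l2 call depended on single libraries. Without library 23 the log2 fold change was 0.44 (adjusted p = 0.152), and without control library 1, 2 or 4 the adjusted p was 0.102, 0.106 and 0.0862. With all 5 libraries apart left out, the 3 remaining controls lay at 58.4 to 72.1 CPM and the 3 remaining mice at 6.0 mg/kg-day at 98.7 to 105 CPM, a separation that follows from leaving out control library 3. The log2 fold change was then 0.70 (adjusted p = 0.000122). With a term for those libraries in the fit of all 20 mice it was 0.73 (adjusted p = 1.31e-05). Both alternatives were chosen after the data were seen, and both raised the share of all genes that passed at this dose from 22.4% to 34.5% (left out) and 37.1% (term).

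Intermediate doses gave Nfe2l2 means of 72.0 ± 11.8, 88.6 ± 19.1 and 92.8 ± 30.2 CPM at 0.03, 0.3 and 3.0 mg/kg-day. None of these passed against the control. Within every group the library that stands apart had the highest Nfe2l2. Across groups these 5 libraries exceeded the other 15 by 0.71 (SE 0.0736) on the log2 scale, about as much as the change at the highest dose. Since they were picked from these same values, that difference is a description and its SE is no measure of an independent contrast.

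Keap1 (chr9:21229730-21239361, minus strand), the adaptor that targets NRF2 for degradation, had 33.9, 31.8, 18.7 and 33.3 CPM in the controls. Its level at 6.0 mg/kg-day was 29.0, 33.2, 27.8 and 46.9 CPM. The groups overlap, the log2 fold change was 0.22 (SE 0.195), and the test was not passed (adjusted p = 0.465). The lowest value in each of the 5 groups belonged to the library that stands apart. Those libraries had a mean of 24.5 CPM against 34.1 CPM in the others, a log2 difference of -0.48 (SE 0.0924), opposite in sign to that of Nfe2l2.

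**Figure D2:**
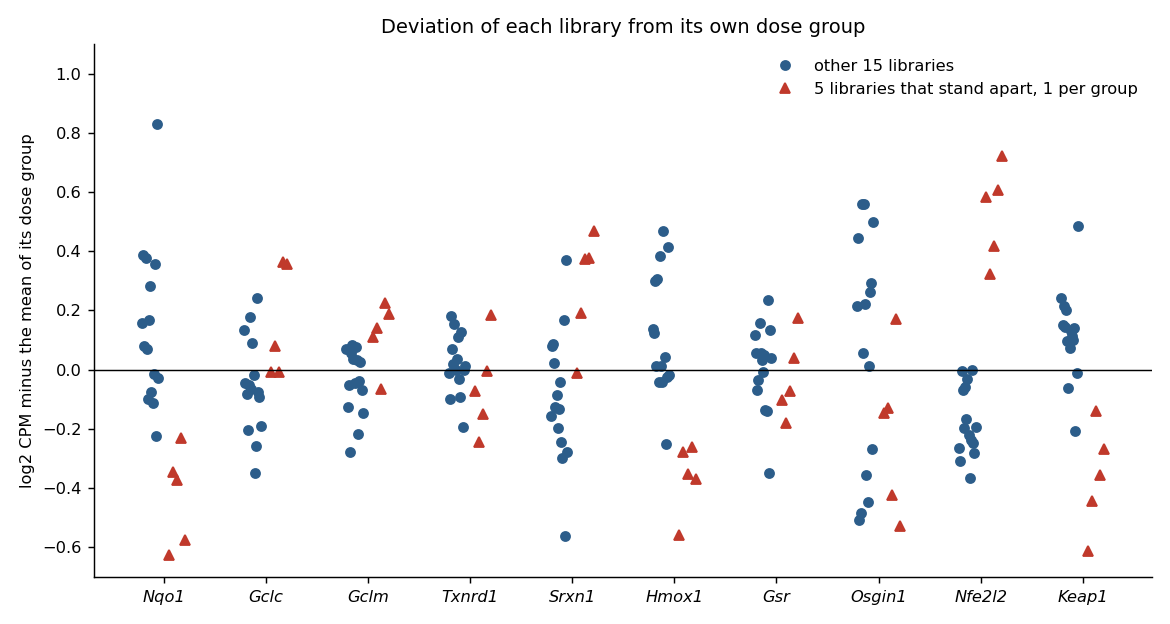
Deviation of each library's log2 CPM (vertical axis) from the mean of its own dose group, for each of the 10 genes. Red triangles are the 5 libraries that stand apart and blue points the other 15; the triangles lie highest for Nfe2l2, in 5 of 5 groups, and lowest for Nqo1, Hmox1 and Keap1, in 5 of 5 groups each.

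Glutathione is made in a first, rate-limiting step by glutamate-cysteine ligase, a pair of GCLC, the catalytic subunit, and GCLM, the modifier subunit that raises its efficiency. Gclc (chr9:77754535-77794485, plus strand) had the highest level per kilobase of exon of the 10 genes in controls, at 121 ± 8.18 CPM per kilobase. By library it had 498, 439.6, 452 and 428 CPM in controls and 453, 483, 742 and 682 CPM at 3.0 mg/kg-day. At 6.0 mg/kg-day it had 729, 721, 983 and 673 CPM. At 3.0 mg/kg-day libraries 17 and 18 lie inside the control range and libraries 19 and 20 far above it, whereas at 6.0 mg/kg-day all 4 mice exceed all controls.

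Gclc rose 1.71-fold at 6.0 mg/kg-day, a log2 fold change of 0.77 (SE 0.154; adjusted p = 0.000985). At 3.0 mg/kg-day the log2 fold change of 0.38 (SE 0.153) did not pass (adjusted p = 0.226). The library that stands apart was the highest for Gclc at both doses. Without the libraries apart the mean at 6.0 mg/kg-day was 708 ± 30.0 CPM (SD, n = 3) against 455 ± 37.6 CPM in controls, and those groups did not overlap.

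Gclm (chr3:122245557-122270732, plus strand) had 287, 250.2, 295 and 263 CPM in controls, and 246, 229.7, 275 and 217 CPM at 6.0 mg/kg-day. The log2 fold change was -0.18 (SE 0.116; adjusted p = 0.288), so no change was detected. All 4 doses gave nearly the same mean, from 240.3 to 242 CPM, below the control mean of 274 ± 20.6 CPM, and none passed. The annotation places an antisense transcript, Gm17494, and a pseudogene, Gm6061, within the Gclm locus, and the strand setting of the authors' counting is unknown here.

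Since both subunits form 1 enzyme, their ratio was formed within each library, where scaling between libraries cancels. Per kilobase, Gclc exceeded Gclm 2.78 ± 0.177 times in controls (SD, n = 4; range 2.56 to 2.93). The ratio was 3.45 ± 0.240 at 0.03, 3.30 ± 0.269 at 0.3, 4.07 ± 0.766 at 3.0 and 5.34 ± 0.443 at 6.0 mg/kg-day. The lowest treated value of all 16 mice was 3.06, above the highest control. The ratio was chosen after its values were seen to separate the groups, and the 4 doses share their controls, so these values are a description with no test. Of the 45 ratios that can be formed between the 10 genes, 1, 4, 9 and 21 separated the groups completely from the lowest dose to the highest. At 0.03 mg/kg-day the only one was Gclc over Gclm. By exact permutation, 4 treated and 4 control mice separate completely with a probability of 0.0286 per ratio. The 1 of 45 at 0.03 mg/kg-day is thus near what chance gives and is not read as a response. The share over ratios of all genes is not given here.

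Gsr (chr8:33652523-33698163, plus strand) encodes glutathione reductase, which returns oxidized glutathione to its reduced form with NADPH. Its control values were 73.2, 70.2, 62.9 and 64.4 CPM. It had 86.9, 86.7, 98.2 and 112 CPM at 3.0 mg/kg-day and 111, 155, 159.7 and 145 CPM at 6.0 mg/kg-day. Every mouse at both doses lay above every control, and 3 of the 4 mice at 6.0 mg/kg-day lay above all at 3.0.

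At 6.0 mg/kg-day Gsr rose 2.11-fold, from 67.7 ± 4.86 to 143 ± 21.9 CPM, a log2 fold change of 1.08 (SE 0.121; adjusted p = 1.82e-06). At 3.0 mg/kg-day it rose by 0.51 (SE 0.120; adjusted p = 0.0143). That call was lost without control library 3 (adjusted p = 0.0502), without control library 4 (0.0513) and without library 20 (0.0867). The libraries that stand apart differed little from the others for Gsr, by -0.04 (SE 0.0818) on the log2 scale.

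The thioredoxin arm is represented by Txnrd1 and Srxn1. Srxn1 (chr2:152105516-152111376, plus strand) encodes sulfiredoxin, which repairs over-oxidized peroxiredoxins. Control libraries had 24.7, 29.1, 27.3 and 29.2 CPM. At 0.3 mg/kg-day the values were 29.2, 30.6, 43.5 and 32.6 CPM. They were 44.2, 42.6, 68.0 and 58.9 CPM at 3.0 mg/kg-day and 76.3, 146, 156 and 93.0 CPM at 6.0 mg/kg-day. No mouse at 3.0 mg/kg-day overlapped the controls and no mouse at 6.0 overlapped those at 3.0. The mice at 0.3 mg/kg-day overlapped both the controls and those at 3.0. Library 13 lay just under control library 4, and library 15 (43.5 CPM) lay above library 18 (42.6 CPM).

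Srxn1 had the largest change of the 10 genes at 3.0 and at 6.0 mg/kg-day. The rise was 1.94-fold at 3.0 mg/kg-day, a log2 fold change of 0.95 (SE 0.203; adjusted p = 0.00618). It was 4.27-fold at 6.0 mg/kg-day, a log2 fold change of 2.09 (SE 0.208; adjusted p = 4.13e-07). The change at 0.3 mg/kg-day was 0.30 (SE 0.202) and did not pass (adjusted p = 0.767), although 3 of 4 mice lay above all controls. The libraries apart exceeded the others by 0.37 (SE 0.111) and were the highest in 4 of 5 groups. Without them Srxn1 lay at 24.7 to 29.2 CPM in controls and 76.3 to 146 CPM at 6.0 mg/kg-day.

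Txnrd1 (chr10:82833951-82897712, plus strand) encodes the cytosolic thioredoxin reductase, a selenoprotein that uses NADPH. Controls had 70.3, 66.0, 67.2 and 80.3 CPM, and mice at 6.0 mg/kg-day had 80.2, 91.7, 104 and 92.7 CPM. The groups touch, since library 21 is just under control library 4. Txnrd1 rose 1.30-fold, a log2 fold change of 0.38 (SE 0.109; adjusted p = 0.0166), the smallest change of those that passed. The call was lost without control library 2 (adjusted p = 0.0514). The group means at the doses between were 77.0 ± 8.81, 79.1 ± 5.87 and 83.2 ± 5.47 CPM, none of which passed. Eid3, Gm38560 and Gm47073 overlap the Txnrd1 locus, Eid3 on the same strand.

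Nqo1 (chr8:107388225-107403206, minus strand) encodes a quinone reductase that is widely used as an NRF2 marker. It had the lowest level per kilobase of the 10 genes in controls, 4.56 ± 1.25 CPM per kilobase. By library its level was 7.65, 9.00, 4.40 and 7.25 CPM in controls and 8.14, 8.71, 7.49 and 11.3 CPM at 3.0 mg/kg-day. At 6.0 mg/kg-day it was 15.1, 31.5, 11.8 and 17.3 CPM. Library 22 had by far the most Nqo1 of all mice, yet each of the 4 mice at this dose lay above every mouse of the other doses.

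Nqo1 rose 2.66-fold at 6.0 mg/kg-day, a log2 fold change of 1.41 (SE 0.264; adjusted p = 0.000556). Leaving out each mouse of the 2 groups in turn gave 1.05 to 1.58 and kept the call each time, with the lowest value when library 22 was left out. At 3.0 mg/kg-day the change was 0.33 (SE 0.266; adjusted p = 0.684). The libraries apart had the lowest Nqo1 in 5 of 5 groups, with a difference of -0.60 (SE 0.148) on the log2 scale.

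Library 22 also had the most Hmox1 and the most marker RNA of several other cell types. The summed level of 10 Kupffer cell markers was 562 CPM there, the highest at 6.0 mg/kg-day, where the lowest was 253 CPM, against 326 to 398 CPM in controls. Of those markers 0 rose and 1, Csf1r, fell at this dose. The 5 neutrophil and monocyte markers summed to 8.70 to 27.8 CPM at 6.0 mg/kg-day and 4.84 to 6.33 CPM in controls, and 1 of the 5, S100a8, rose by 3.97 (adjusted p = 5.90e-06). Lymphocyte markers, 4 of 6 tested, summed to 3.20 to 5.22 CPM in controls. At 6.0 mg/kg-day they summed to 15.5 CPM in library 22 and to 3.17, 3.17 and 2.53 CPM in libraries 21, 23 and 24. None of the 4 passed, and Cd8a was at 0 in 1 library. Of 7 sinusoidal endothelial markers 2 rose and 2 fell at 6.0 mg/kg-day (median -0.26), of 7 stellate cell markers 2 fell (median -0.51), and of 5 erythroid markers 1 rose and 1 fell (median -0.92). None of 5 cholangiocyte markers passed. Of all genes tested, 11.2% rose and 11.2% fell at 6.0 mg/kg-day. The part of these cells in the Nqo1 result was not tested. The 3 other mice at this dose had Nqo1 at 11.8 to 17.3 CPM, above all controls, and their neutrophil and monocyte sums of 11.7, 10.5 and 8.70 CPM were above all controls as well.

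Hmox1 (chr8:75093621-75100589, plus strand) encodes heme oxygenase, which opens heme and releases iron and biliverdin, and which macrophages also express. Controls had 9.48, 9.39, 5.81 and 10.6 CPM, and mice at 6.0 mg/kg-day had 10.6, 14.5, 8.35 and 10.7 CPM. The groups overlap, with a log2 fold change of 0.32 (SE 0.215) that did not pass (adjusted p = 0.313). At 3.0 mg/kg-day the change was -0.14 (SE 0.217; adjusted p = 0.873). As with Nqo1, the library that stands apart had the lowest Hmox1 of its group in 5 of 5 groups, by -0.50 (SE 0.114).

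Osgin1 (chr8:119434124-119446256, plus strand), named as an oxidative stress induced growth inhibitor, had the lowest estimate of the 10 at 6.0 mg/kg-day. The controls had 49.5, 58.1, 38.5 and 30.0 CPM, and libraries 21 to 24 had 31.2, 21.1, 17.6 and 36.0 CPM. Both groups spread widely and overlap. The log2 fold change of -0.73 (SE 0.275) did not pass (adjusted p = 0.0606). It passed with DESeq2 (adjusted p = 0.0448), without control library 4 (0.0382), without library 24 (0.0331) and with a term for the libraries apart (0.0211), but not with those libraries left out (0.103).

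**Figure D3:**
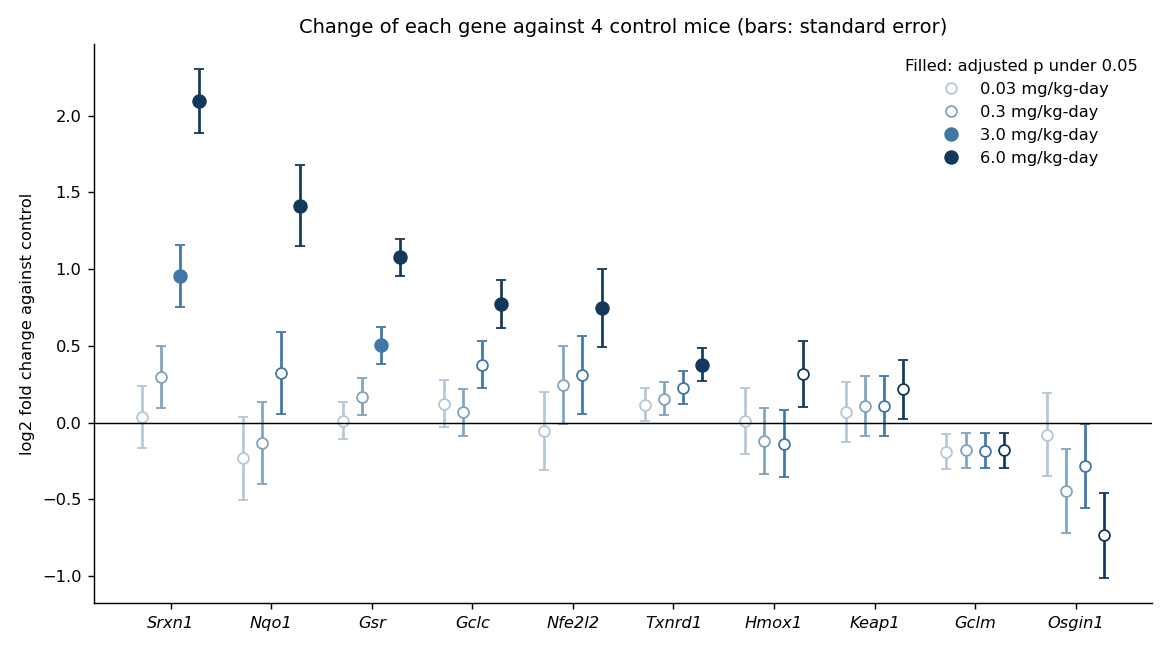
Log2 fold change of each of the 10 genes against the 4 control mice (vertical axis) at each dose, with bars of 1 standard error. Filled points passed an adjusted p of 0.05: 6 genes at 6.0 mg/kg-day and Srxn1 and Gsr at 3.0 mg/kg-day; Gclm lies between -0.19 and -0.18 at all 4 doses.

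The lowest doses were asked whether the response began there. Of the 10 genes, 0 passed at 0.03 mg/kg-day and 0 at 0.3 mg/kg-day, where 0% and 0.290% of all genes passed in edgeR's test. At an unadjusted p under 0.05 the counts were also 0 and 0, with the share of all genes at that threshold not given here. DESeq2 and limma-voom gave 0 at both doses. Among all 15197 genes, DESeq2 called 10 at 0.03 and 186 at 0.3 mg/kg-day, and limma-voom called 1 and 39. All 10 genes overlapped the controls at both doses, with the share of all genes that overlapped not given here. The estimates ranged from -0.23 to 0.12 at 0.03 mg/kg-day and from -0.44 to 0.30 at 0.3 mg/kg-day, with standard errors from 0.109 to 0.273.

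The lowest dose with calls was 3.0 mg/kg-day, where 2 of the 10 genes rose, Srxn1 and Gsr, and 0 fell. Among all genes tested 4.61% passed, 3.18% rising and 1.43% falling. At an unadjusted p under 0.05, 4 of the 10 rose, but the share of all genes at that threshold is not given here. That count therefore has no background to be read against. The median of the 10 was 0.27, beside -0.02 over all genes tested.

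In mice at 6.0 against mice at 3.0 mg/kg-day 3 of the 10 genes rose, where 2.09% of all genes passed. Of these, Srxn1 and Gsr had also passed at 3.0 mg/kg-day against the control, and Nqo1 had not. Srxn1 rose by 1.14 (SE 0.201; adjusted p = 0.00515), Nqo1 by 1.09 (SE 0.261; adjusted p = 0.0317) and Gsr by 0.57 (SE 0.120; adjusted p = 0.0136). The rise of Nqo1 dropped to 0.73 (adjusted p = 0.175) without library 22, and its call was also lost without library 17, 18, 19 or 24. The call of Gsr was lost without library 17, 18 or 22, at adjusted p = 0.0738, 0.0662 and 0.0586. A fit of those 2 groups alone called 0 of the 10, with adjusted p = 0.122 for Srxn1, 0.191 for Nqo1 and 0.202 for Gsr. That fit called 0 of all 14366 genes it tested, so its 0 of 10 is not particular to these genes. Nfe2l2 had 0.44 (SE 0.253; adjusted p = 0.440) here. It passed with a term for the libraries apart (0.42; adjusted p = 0.0156) and without them (0.38; adjusted p = 0.0367).

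A slope over the rank of the dose, from 0 to 4, used all 20 mice. On this test 7 of the 10 genes passed, beside 26.4% of all genes. The rises per dose step were 0.52 for Srxn1, 0.35 for Nqo1, 0.27 for Gsr, 0.19 for Nfe2l2, 0.18 for Gclc and 0.09 for Txnrd1. Osgin1 fell by 0.17 per step (SE 0.0601; adjusted p = 0.0450), a call that 10 of the 20 fits with 1 library left out did not keep, those without libraries 1, 2, 10, 11, 12, 14, 17, 21, 22 and 23. The Osgin1 call was also lost with no filter (adjusted p = 0.0553), on log10 dose (0.0683), on dose (0.0572) and without the libraries apart (0.0627). The slope of Nfe2l2 lost its call without library 23 (0.12, adjusted p = 0.0580). A joint test for a difference at any dose passed for 4 of the 10, Nqo1, Gclc, Srxn1 and Gsr, beside 21.4% of all genes.

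The rest of the pathway was read from 6 lists of genes, none of them members. These lists were chosen with earlier results of these data known, so their counts are a description and no independent support. The highest median was that of a list of 20 other NRF2 targets of mouse liver, of which 19 were tested. The highest dose raised 15 of them and lowered 0, where 11.2% of all genes rose, and their median was 1.08. Ugdh, which makes UDP-glucuronic acid for glucuronidation, rose by 2.71 (SE 0.193; adjusted p = 6.58e-09), from 105 ± 14.9 to 688 ± 173 CPM. Abcc4, an exporter of conjugated anions, rose by 2.69 (SE 0.240; adjusted p = 1.09e-07). Abcc4 was also the only gene of the list to pass at 0.3 mg/kg-day, by 1.24 (adjusted p = 0.0244). At 3.0 mg/kg-day 8 of the list rose, where 3.18% of all genes did. Without library 22, 12 rose at 6.0 mg/kg-day, where 15.3% of all genes passed in either direction. Several of these genes are also targets of the xenobiotic receptor CAR.

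NADPH feeds both glutathione reductase and thioredoxin reductase. Of 9 genes of NADPH supply, 5 rose and 0 fell at the highest dose (median 0.84), where 11.2% of all genes rose and 11.2% fell. Pgd, of the pentose phosphate pathway, rose by 1.18 (SE 0.151; adjusted p = 9.28e-06). Idh1, the cytosolic isocitrate dehydrogenase, rose by 0.84 (SE 0.111; adjusted p = 1.31e-05). These 2 also rose at 3.0 mg/kg-day, by 0.61 and 0.50.

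Glutathione synthesis and cystine supply moved in both directions. Of 11 genes tested out of 13, 2 rose (Cth and Glrx) and 4 fell (Chac1, Gls2, Slc3a2 and Cbs), with a median of 0.20. At 6.0 mg/kg-day 11.2% of all genes rose and 11.2% fell. Chac1, which breaks glutathione down, fell by 3.26 on the log2 scale (SE 0.423; adjusted p = 1.05e-05), from 1.92 ± 0.471 to 0.190 ± 0.123 CPM, a low level in every group. Gls2, the liver glutaminase, fell by 1.26 (SE 0.163; adjusted p = 1.04e-05). Without library 22 the counts were 2 and 3, where 15.3% of all genes passed.

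Among 22 genes of the thioredoxin and peroxide list, 5 rose (Prdx1, Prdx3, Prdx6, Txn2 and Msra) and Sod3 fell. Prdx3, the mitochondrial peroxiredoxin, rose by 0.78 (SE 0.128; adjusted p = 0.000140). Sod3, the extracellular superoxide dismutase, fell by 0.55 (SE 0.135; adjusted p = 0.00529). Without library 22, 1 rose and 1 fell, where 15.3% of all genes passed. With the libraries apart left out, 11 rose and 2 fell, where 34.5% of all genes passed. The count of this list and that over all genes thus both moved with those libraries, and the 6 calls of 22 are near the 22.4% of all genes.

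Of 8 genes of heme breakdown and iron storage, 3 rose and 1 fell, with a median of 0.42, where 11.2% of all genes rose and 11.2% fell. Slc48a1, a heme transporter, rose by 0.87 (SE 0.124; adjusted p = 3.11e-05), and Ftl1, the ferritin light chain, by 1.08 (SE 0.199; adjusted p = 0.000449). Blvrb rose by 0.84, and the iron exporter gene Slc40a1 fell by 0.54. Hmox1 itself, at the head of this pathway, did not pass.

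Regulators of NRF2 other than Keap1 showed the fewest calls. In edgeR's test 0 of 15 tested passed at 6.0 mg/kg-day, where 22.4% of all genes did, and their median was 0.05. The smallest p-values were those of Bach2 (-0.62; adjusted p = 0.0508) and Crebbp (-0.56; adjusted p = 0.0618). Both when the libraries apart had a term in the fit and when they were left out, 4 of 15 fell and 0 rose, where 37.1% and 34.5% of all genes passed, so these calls are no more frequent than among all genes.

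**Figure D4:**
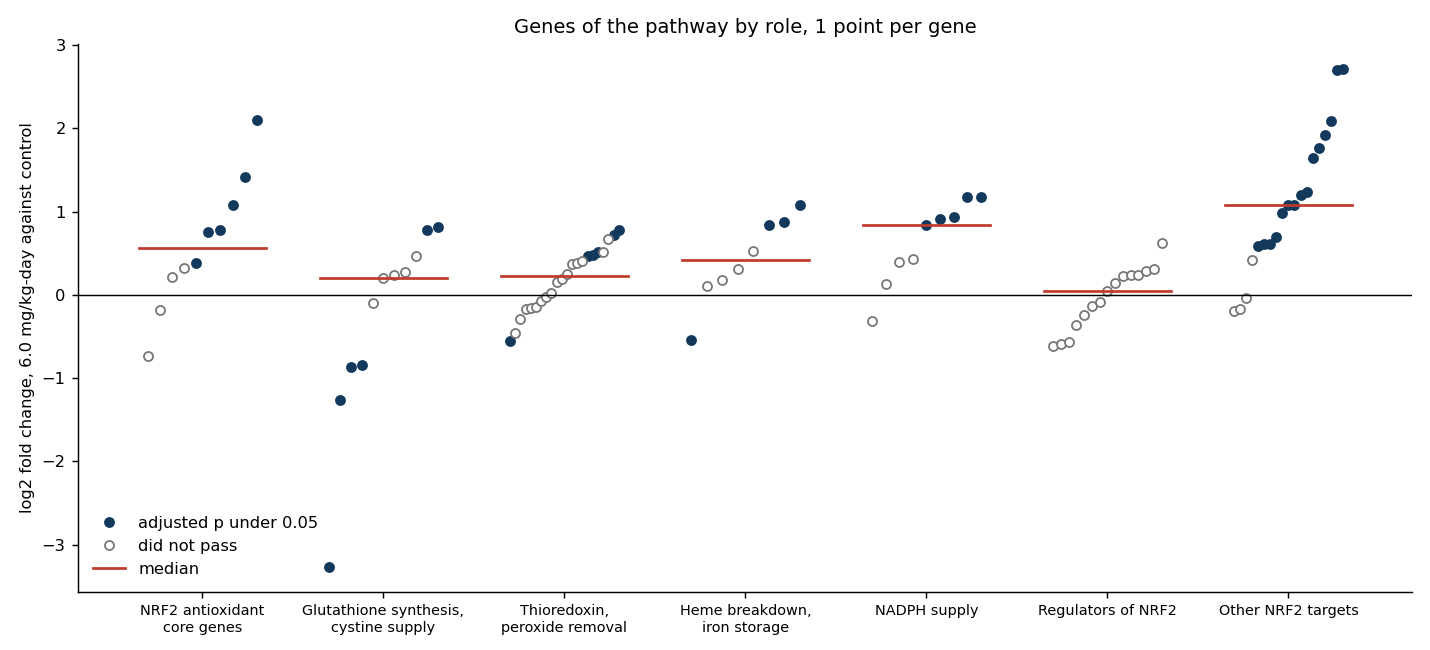
Log2 fold change at 6.0 mg/kg-day against control (vertical axis) for the 10 genes and the 6 other lists of the pathway, 1 point per gene tested. Filled points passed an adjusted p of 0.05 and red lines are medians, which run from 0.05 for the regulators of NRF2 to 1.08 for the other NRF2 targets.

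In controls the order of levels per kilobase was Gclc, Gclm, Gsr, Nfe2l2, Osgin1, Txnrd1, Srxn1, Keap1, Hmox1 and Nqo1. Gclc (121) and Gclm (43.5 CPM per kilobase) stood clear of the genes below them, and Srxn1 (9.79) stood clear of Keap1 (6.27). The other neighbours had overlapping ranges. At 6.0 mg/kg-day the mean of Srxn1 was 41.8 ± 13.9 CPM per kilobase, close to that of Gclm at 38.4 ± 3.93.

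The genes whose log2 CPM followed each member most closely over the 20 libraries are given as a description, since all libraries share the dose groups and the libraries apart. For Nqo1 these were Htatip2, Lgals1 and Hfe (Pearson's r 0.97, 0.96 and 0.95). For Srxn1 they were Gstp-ps, Ncapd2 and Mtmr11, each at 0.97, and for Gsr they were Gbe1, Prune1 and Ugdh (0.97, 0.97 and 0.96). Gclc was followed by Mttp and Ugt2b35, among others (0.93 and 0.92). Nfe2l2 was followed by Anxa4, Arel1 and Hspd1, each at 0.92, and Keap1 by Reep6, Rmnd5b and Clpb (0.95, 0.93 and 0.93). The weakest matches were those of Hmox1, led by Crip1 at 0.86, and of Osgin1, led by Gm16551 at 0.79.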

How the data were processed

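The deposited table holds 1 column per library, each pooling 4 lanes, so the 80 lane samples are 20 libraries. The deposited values have the form of expected counts: 58.0% were whole and column totals were unequal. Per the submitters' processing notes, Partek and GRCm38.p5 were used. The sources used here do not give the counting method, annotation or strand setting. Counts were rounded, low rows left out with filterByExpr (15197 of 22103 kept) and libraries scaled with TMM. edgeR 4.0.16 (R 4.3.3) fitted all 20 mice with 5 group means, 15 residual degrees of freedom and a biological coefficient of variation of 0.219. The SE is the absolute log2 fold change divided by the square root of F. Alternatives used limma 3.58.1 (voom), DESeq2 1.42.0, RLE factors, no filter, 2-group fits, other slopes, leaving out each mouse, and, added after seeing the data, the libraries apart. The fits were tested on simulated data.

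All 10 members are named, with the 2 smallest p-values at 6.0 mg/kg-day of each pathway list and the 3 closest genes to each member, of which 2 are not reported here. Other listed genes, the ratio of Gclc to Gclm and S100a8 were chosen after their values were seen. The members and lists were chosen with earlier results of these data known.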

Additional observations from a re-analysis of the deposited data

Results flagged for a closer look

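Of 50 sets of 4 mice (10 genes in 5 groups), 3 held a library whose gap to the nearest other exceeded Dixon's 95% critical value for 4 samples. Chance gives this in about 1 set in 20. Nfe2l2 in library 23, at 6.0 mg/kg-day, was at 198 CPM while the other 3 mice lay at 98.7 to 105 CPM. Keap1 in control library 3 was at 18.7 CPM, with the other 3 at 31.8 to 33.9 CPM. Keap1 in library 19, at 3.0 mg/kg-day, was at 24.6 CPM, with the other 3 at 33.8 to 34.8 CPM. All 3 are libraries that stand apart in their groups.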

How the results depend on the processing

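Counts of members that passed kept within 1.5 times of the reported count under every alternative run, except as follows. For 3.0 mg/kg-day against control, leaving out 1 mouse gave 1 to 2 (reported 2). For 6.0 against 3.0, it gave 1 to 3 (reported 3), and the fit of those 2 groups alone gave 0, with fewer mice behind the spread. That 2-group fit called 0 of all 14366 genes it tested. Within the limit of 1.5 times, leaving out 1 mouse for 6.0 against control gave 4 to 7 (reported 6). Without control library 4 or library 24 this count includes the fall of Osgin1. The 2-group fit gave 4, where 12% of all genes passed. The 2-group fit also lost Nfe2l2 (adjusted p = 0.0970) and Txnrd1 (0.0993) there. The 0.03 and 0.3 counts stayed at 0.

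Only estimates near 0 changed sign, none of them called. At 0.03 mg/kg-day leaving out 1 mouse gave Srxn1 -0.0183 to 0.0897, Hmox1 -0.137 to 0.112, Gsr -0.0319 to 0.0816, Osgin1 -0.289 to 0.0849, Nfe2l2 -0.161 to 0.180 and Keap1 -0.0944 to 0.207. Without the libraries apart Srxn1 had -0.0241, Hmox1 -0.0382 and Nfe2l2 0.0697. At 0.3 mg/kg-day leaving out 1 mouse gave Nqo1 -0.296 to 0.00294 and Keap1 -0.0522 to 0.186, and without the libraries apart Keap1 had -0.00259. Keap1 had -0.0535 to 0.216 at 3.0 mg/kg-day and -0.0829 to 0.194 for 6.0 against 3.0. Gclm for 6.0 against 3.0 had -0.0662 to 0.0818, and -0.00321 with no filter and in the 2-group fit. The cause was not tested. Of the single-gene values under all alternatives, 962 kept direction and call, 36 lost a call, 6 gained one and 26 changed sign. With 4 mice per group, changes of more than 2 standard errors could still miss the threshold, as for Gclc at 3.0 mg/kg-day (0.38, SE 0.153) and Osgin1 at 6.0 mg/kg-day (-0.73, SE 0.275).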

Other observations

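The remaining closest matches by Pearson's r over 20 libraries were Rnf2, Api5 and Dr1 for Gclm (0.89, 0.88 and 0.88), and included Fmo5 and Tgfbr2 for Txnrd1 (0.89 and 0.87). Vav1 and Nudt2 (0.84 each) followed Hmox1 after Crip1. Fgf21 and Tsc22d1 (0.78 and 0.77) followed Osgin1 after Gm16551. Among the 10 genes Srxn1 and Gsr had r = 0.94 over all libraries and 0.47 once each group's mean was removed. Nfe2l2 and Keap1 had -0.39 over all libraries and -0.74 within groups, and Nfe2l2 and Hmox1 had -0.80 within groups. Gclc and Gclm had 0.13 over all libraries and 0.66 within groups. The 5 libraries that stand apart contribute to each of these values, which are descriptions with no test.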
